A study of Mus musculus with 7 samples.

Results

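The 6 mouse glypican genes, Gpc1 to Gpc6, were followed through single-nucleus RNA libraries of brain; they are 6 of the 32285 genes in the count matrices. They were taken by symbol, and the family was chosen with 1 earlier result in view, the lower Gpc5 in ependymal nuclei of ANGPT2 AAV mice, so that contrast is given as a description, and its passing or missing a threshold is no evidence. The mice were 5xFAD +/-, a transgenic line that forms amyloid plaques, were injected retro-orbitally with an AAV at an age of 4 months and studied at 6 months. The control group (control AAV) had 3 libraries and the ANGPT2 group (ANGPT2 AAV, encoding angiopoietin-2, a ligand of the endothelial receptor TIE2) had 4, from subcortex, thalamus and hippocampus. All groups carried the 5xFAD transgenes, so no comparison with brain free of amyloid was made. Both sexes of both treatments were present in batch 1, while batch 2 lacked a control female. The labels used here do not name the AAV serotype or promoter, or the number of animals in a library, so p-values measure only the spread between these libraries.

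Glypicans are heparan sulfate proteoglycans held on the outer cell membrane by a lipid (GPI) anchor. Their sulfated sugar chains bind Wnt, Hedgehog, FGF and BMP ligands and so change how much of each signal reaches its receptor. In brain, Gpc4 and Gpc6 are known as astrocyte-secreted factors that promote excitatory synapses, Gpc4 also acts at the presynaptic side, and GPC3 loss causes an overgrowth syndrome in people.

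The family lies in pairs and single genes in GRCm38 (GENCODE M21). Gpc5 (ENSMUSG00000022112, chr14:115092215-116525179, plus strand) and Gpc6 (ENSMUSG00000058571, chr14:116925315-117976544, plus strand) are neighbours 400 kb apart with 0 protein-coding genes between them. Gpc4 (ENSMUSG00000031119, chrX:52053021-52165252, minus strand) and Gpc3 (ENSMUSG00000055653, chrX:52272426-52613950, minus strand) are neighbours 107 kb apart, also with 0 protein-coding genes between them. Gpc1 (ENSMUSG00000034220) is at chr1:92831645-92860779 on the plus strand and Gpc2 (ENSMUSG00000029510) at chr5:138273655-138280005 on the minus strand. Gene length differed widely, from 6.35 kb for Gpc2 to 1433 kb for Gpc5, of which exons were 67.3% and 0.311%. Nuclear RNA is rich in unspliced transcripts, so a long gene can collect more UMIs (unique molecular identifiers, 1 per captured RNA molecule) than a short one, and levels are compared below between classes for 1 gene unless a length scale is named.

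As a description, the 250 bases before the RefSeq start (GRCm38.p6) of Gpc5, the member with the highest class level, are printed beside those of Gpc4. CpG dinucleotides are in capitals. By the GENCODE coordinates above, the Gpc4 window lies inside the gene and the Gpc2 window partly inside it. The Gpc5 and Gpc3 windows lie before the gene, so the windows are not at like positions. RefSeq windows were matched for 4 of the 6 members (Gpc2, Gpc3, Gpc4 and Gpc5).
Gpc5 (chr14:115091965-115092214, plus strand): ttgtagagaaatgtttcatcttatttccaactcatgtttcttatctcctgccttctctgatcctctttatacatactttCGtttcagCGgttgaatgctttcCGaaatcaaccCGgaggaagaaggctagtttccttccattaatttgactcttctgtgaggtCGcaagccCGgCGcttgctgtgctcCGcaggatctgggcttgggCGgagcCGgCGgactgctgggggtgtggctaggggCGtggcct
Gpc4 (chrX:52164924-52165173, minus strand): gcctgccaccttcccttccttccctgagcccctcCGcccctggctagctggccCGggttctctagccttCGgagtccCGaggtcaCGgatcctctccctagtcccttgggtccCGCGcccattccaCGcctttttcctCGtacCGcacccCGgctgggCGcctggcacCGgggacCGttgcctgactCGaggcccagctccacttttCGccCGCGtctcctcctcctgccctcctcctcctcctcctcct
The Gpc5 window held 12 CpG and was 51.2% G or C, while the Gpc4 window held 18 and was 68.4%; the windows of Gpc2 and Gpc3 held 19 and 25. The median of all 32851 windows was 6 CpG and 52.4%. Searched on both strands, the SOX core ACAAAG and the NFI motif TTGGCA had 0 matches in all 4 windows, against 16.5% and 12.3% of all windows holding them. The TATA box sequence TATAAA had 1 match in the Gpc5 window, on the strand opposite to the gene, and 0 in the other 3. On either strand, 12.4% of all windows held it. These counts describe letters only.

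Nuclei were grouped into 13 classes by markers, with the glypicans left out of the clustering genes. Every class name stands for a marker-defined, "astrocyte-like" or similar, cluster group. The defining markers were present, with 12 of 12 ependymal markers detected in every library's ependymal nuclei. After filters on quality and doublets, 54230 of 58286 barcodes were kept (the labels give 900 to 1500 nuclei loaded, fewer than the 6311 to 9630 barcodes of each library), of which 10473 stayed unnamed. Total UMIs ran from 25466033 to 100529717 per library and were lower in all 3 libraries of batch 2 (25466033 to 32526932) than in the 4 of batch 1. Pairs of libraries shared 63 to 137 cell barcodes. Levels are given as CPM, the UMIs of a gene per 1000000 UMIs of the class in a library. Classes were summed only in libraries with 10 or more of their nuclei, which leaves 5 libraries for choroid plexus (without both ANGPT2 libraries of batch 2) and 6 for medium spiny neurons (without the control male of batch 1).

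Gpc5 reached the highest level of any member in a class, and its signal was highest in astrocytes and oligodendrocyte precursors. Over whole libraries it did not exceed Gpc6 (513 ± 42.1 and 522 ± 62.0 CPM, n = 7). In astrocytes, the 3 control libraries held 10610 (male, batch 1), 9708 (female, batch 1) and 9679 CPM (male, batch 2), and the 4 ANGPT2 libraries 11086 and 11504 (male and female, batch 1) and 13913 and 12554 CPM (male and female, batch 2). All 4 ANGPT2 values lay above all 3 control values, a difference tested below. In oligodendrocyte precursors, the proliferating parents of myelin-forming cells, the level was 4564 ± 616 CPM (SD, n = 7 libraries). All 7 of those values (3926 to 5635 CPM) lay below all 7 astrocyte values.

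The signal dropped along the oligodendrocyte lineage. Committed precursors held 210 ± 144 CPM and mature oligodendrocytes 68.1 ± 12.5 CPM (SD, n = 7). After each nucleus was thinned to 1000 UMIs, 95.6% of astrocytes and 93.7% of oligodendrocyte precursors had a Gpc5 UMI, averaged over libraries, against 15.8% of committed precursors and 6.06% of oligodendrocytes. Thinning left out 8418 of the 54230 nuclei as too shallow (3947 control and 4471 ANGPT2); unthinned, the shares were 95.8%, 97.1%, 36.1% and 10.9%. Microglia showed 5.70% thinned and 10.8% unthinned; the source of the UMIs in microglia and oligodendrocytes was not tested.

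Among neurons, Gpc5 was found in particular clusters and not throughout. Inhibitory neurons held 357 ± 93.3 CPM as a class, yet inhibitory cluster 7 (led by Rmst, Baiap3 and Glra3) held 845 ± 363 and inhibitory cluster 18 held 18.1 ± 8.03 CPM (SD, n = 7). Excitatory neurons held 166 ± 79.2 CPM, with 1063 ± 715 in excitatory cluster 16 and 19.7 ± 8.45 in excitatory cluster 8. Cluster 16 was uneven between libraries: the control female of batch 1 held 2621 CPM and the other 6 libraries 421 to 1009. Dentate granule neurons, the principal cells of the hippocampal dentate gyrus, held 28.0 ± 10.3 CPM and medium spiny neurons, the striatal projection neurons, 43.7 ± 37.9 (n = 7 and 6).

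**Figure D1:**
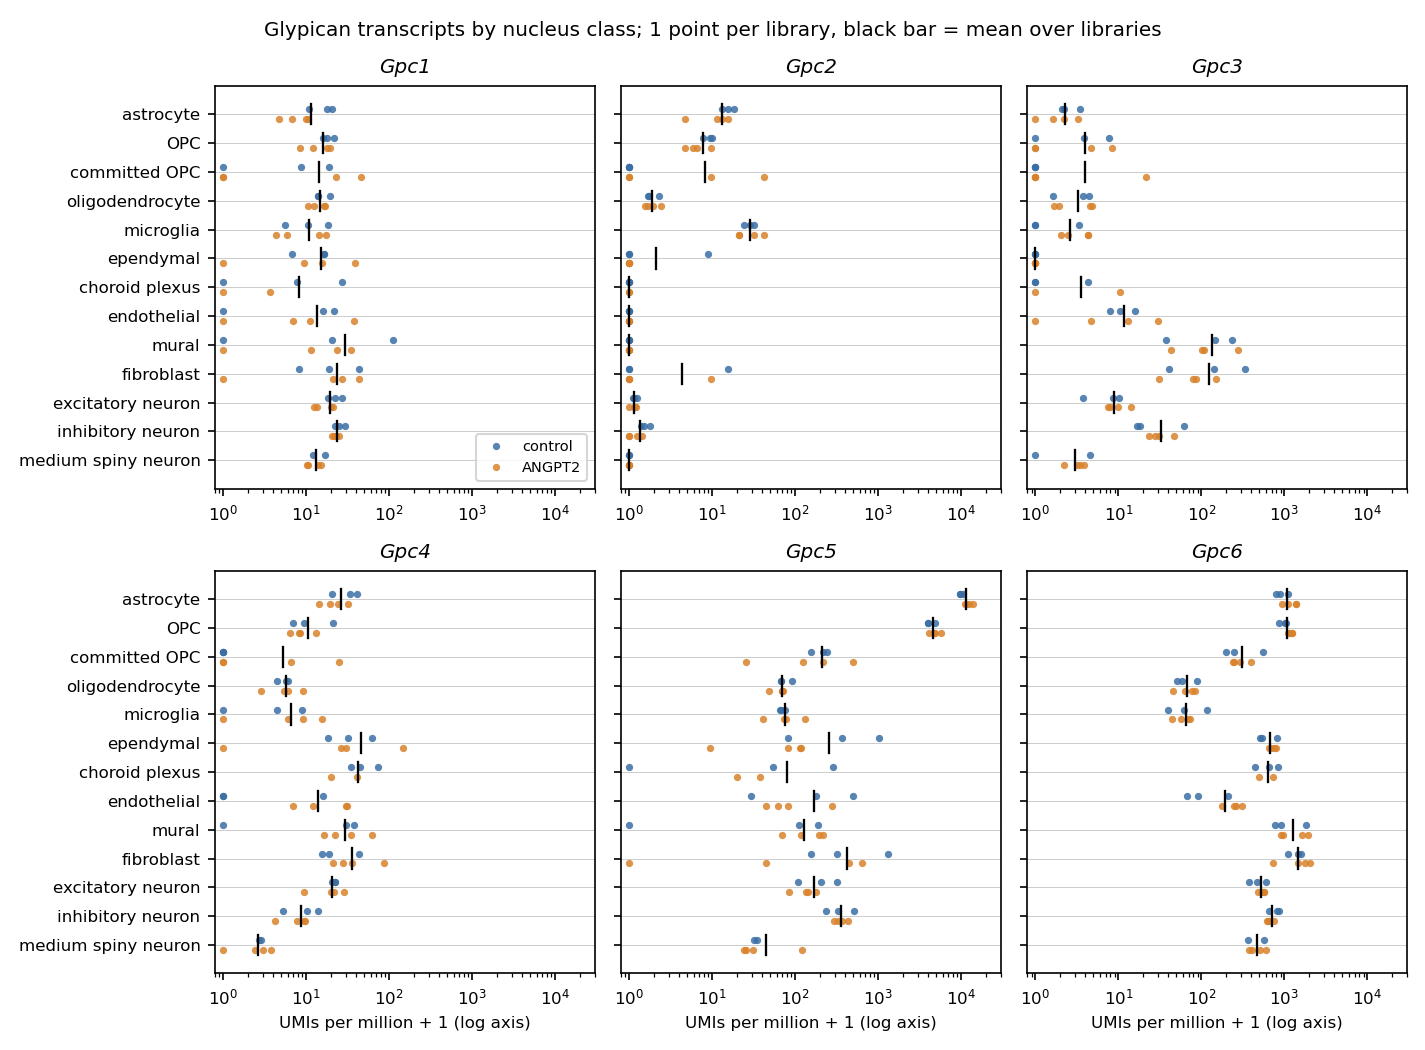
CPM plus 1 (log axis) of each glypican in the 13 nucleus classes; each point is 1 library (blue control, orange ANGPT2) and the black bar is the mean over libraries. Gpc5 lies at 9679 or more in every library's astrocytes and Gpc6 is spread over many classes, while Gpc1, Gpc2 and Gpc4 have class means of at most 44.4.

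Gpc6, the neighbour of Gpc5, was spread much more evenly. Fibroblasts held 1445 ± 427 CPM and mural cells (pericytes and smooth muscle of vessels) 1276 ± 490, followed by oligodendrocyte precursors at 1087 ± 126 and astrocytes at 1075 ± 230 CPM (SD, n = 7). The ranges of those 4 classes overlapped, so their order is not fixed beyond the spread of libraries. Inhibitory neurons (709 ± 97.7), ependymal nuclei (677 ± 122), choroid plexus (628 ± 166, n = 5) and excitatory neurons (514 ± 79.4 CPM) came next; each overlapped its neighbour in this order, while the lowest inhibitory library (620) lay above the highest excitatory one (605). Oligodendrocytes (66.1 ± 16.9) and microglia (64.9 ± 26.0) were lowest.

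Gpc6 also varied widely within classes. Excitatory cluster 40 (led by Tshz2) held 2043 ± 419 CPM and excitatory cluster 4 held 1265 ± 172, while excitatory cluster 8 held 25.1 ± 10.6 and dentate granule neurons 20.6 ± 6.95 CPM. The astrocytes split in a similar manner: astrocyte cluster 6 held 1267 ± 133 CPM and astrocyte cluster 25 held 427 ± 95.4, and the 7 libraries of cluster 25 (324 to 567) all lay below the 7 of cluster 6 (1114 to 1417). Gpc5 separated those clusters less clearly, at 11843 ± 1397 CPM in cluster 6 and 9946 ± 2690 in cluster 25, with overlapping ranges. Within libraries, cluster 25 lay below cluster 6 except in the ANGPT2 male of batch 2. There it held 15712 against 13814 CPM, with only 14 nuclei in cluster 25. Per kilobase of gene, Gpc5 was at 7.88 CPM and Gpc6 at 1.02 CPM in astrocytes, whereas in fibroblasts Gpc6 (1.37) was above Gpc5 (0.292).

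Gpc4 was low in most classes, with 1 clear exception. In dentate granule neurons the controls held 144 (male, batch 1), 85.8 (female, batch 1) and 164 CPM (male, batch 2), and the ANGPT2 libraries 129, 142, 180 and 152 CPM (male and female of batch 1, then male and female of batch 2). The lowest library was the control female of batch 1, whose 681 dentate nuclei made up a cluster of their own (cluster 22, led by genes that include Bdnf). Over the 7 libraries the mean was 142 ± 29.9 CPM, and thalamic excitatory neurons held 0.834 ± 0.802. Excitatory neurons as a class averaged 19.7 ± 5.76 CPM.

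Outside neurons, Gpc4 stood at 25.5 ± 9.44 CPM in astrocytes (191 UMIs), 44.4 ± 48.6 in ependymal nuclei (27 UMIs) and 41.6 ± 19.6 in choroid plexus (39 UMIs, n = 5). The ependymal mean was carried by the ANGPT2 female of batch 2 at 146 CPM, with the other 6 libraries between 0 and 61.3. In the astrocyte clusters Gpc4 was at 29.7 ± 11.9 CPM in cluster 6 and 7.75 ± 8.25 in cluster 25. The ranges over libraries overlapped, but within every library cluster 25 lay below cluster 6. Counts were low, at 0 to 11 Gpc4 UMIs a library in cluster 25.

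Gpc3, a growth regulator that binds Hedgehog and Wnt ligands, was highest in mural cells (135 ± 91.3 CPM, 77 UMIs) and fibroblasts (122 ± 102 CPM, 83 UMIs). The ranges, 36.7 to 275 and 29.8 to 330 CPM, overlapped throughout. Inhibitory neurons held 31.3 ± 16.4 CPM, with 52.6 ± 22.9 in inhibitory cluster 7. Excitatory cluster 38 (led by Col24a1, Ntng2 and Nr4a2) held 40.2 ± 21.2 CPM. Ependymal nuclei held 0 Gpc3 UMIs, and astrocytes 10 in 2970 nuclei.

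Gpc2, a glypican best known from the developing nervous system, gave 430 UMIs in all nuclei. Microglia held 27.7 ± 7.54 CPM (19.8 to 41.0 over 7 libraries), astrocytes 12.1 ± 4.33 and oligodendrocyte precursors 6.69 ± 2.08, while excitatory neurons held 0.142 ± 0.0782. The 7 microglial values all lay above the 7 astrocyte values (3.69 to 17.2). The annotation places a second protein-coding gene model, Gm43720, over 2376 exonic bases of Gpc2 on the same strand; it is not among the genes of the matrices, and its part in the microglial signal was not tested.

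Gpc1 was low and flat. Class means ran from 7.14 CPM in choroid plexus to 28.1 in mural cells, the latter on 16 UMIs. The well-counted classes were inhibitory neurons at 22.8 ± 3.06 (1089 UMIs), excitatory neurons at 18.3 ± 5.18 (3962 UMIs) and oligodendrocytes at 13.8 ± 2.97 CPM (301 UMIs). Excitatory cluster 27 held 42.5 ± 7.66 CPM.

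The genes whose class profile was most like that of Gpc2 to Gpc6 were ranked by Pearson correlation of log2(mean CPM + 1) over the 13 classes, given as a description. For Gpc5 these were Gm20713 (r = 0.97), Rasa2 (0.93) and Gm3764 (0.93). Gm20713 is a noncoding transcript that overlaps Gpc5 over 83135 bases on the opposite strand, and whether the counting used strand is not given in the sources used here. For Gpc6 they were Rora (0.93), Carmil1 (0.89) and Rnf217 (0.86), and for Gpc3 Adamts15 (0.94), C1qtnf7 (0.92) and Gm42397 (0.90). For Gpc4 they were Zic4 (0.91), F420014N23Rik (0.91) and Boc (0.90). For Gpc2 they were Cklf, Abcb1b and Lrmda (each 0.84), all highest in microglia. Among the members themselves the closest pair was Gpc1 and Gpc3 (r = 0.78), and the neighbours Gpc5 and Gpc6 gave 0.53 and Gpc3 and Gpc4 0.24.

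Between ANGPT2 AAV and control AAV, no glypican outside ependymal nuclei passed the test in any class under the main design. edgeR's quasi-likelihood test with Benjamini-Hochberg adjustment was fitted to all genes of each class, and 41 of 78 glypican and class pairs passed its filter on low counts. Over all genes, 0% passed an adjusted p of 0.05 in astrocytes, in each of the other 11 classes apart from ependymal nuclei, and in whole libraries. In ependymal nuclei the share was 0.0678% (2 of 2950 genes, Lsamp and Gpc5); that Gpc5 is among them follows from how the family was chosen, and nothing is read from it. DESeq2 called 30 genes in inhibitory neurons and 2 each in medium spiny neurons and whole libraries, and 0 elsewhere; 33 (mural) to 798 (excitatory) genes a class had an unadjusted p under 0.05 with edgeR. Of the 40 glypican pairs other than ependymal Gpc5, 4 had an unadjusted p under 0.05 and 0 an adjusted one, and 21 were higher and 19 lower in ANGPT2. Over all genes, the share with an unadjusted edgeR p under 0.05 was 2.02% (medium spiny neurons) to 5.73% (inhibitory neurons) of a class. In the classes of the 4 pairs it was 3.39% (astrocytes), 4.63% (oligodendrocyte precursors) and 2.12% (endothelial nuclei). Choroid plexus Gpc5 passed with no filter on low counts (log2 change -2.31, edgeR adjusted p = 0.00275), where 3 of 16677 genes did. Its change was -2.16 when the batch 1 ANGPT2 male was left out, which leaves 1 ANGPT2 library. In choroid plexus, 1 nucleus held 73 of the 108 Gpc5 UMIs. In whole libraries, where fewer cells of a type and less RNA per cell cannot be told apart, 0 of the 6 members had an unadjusted p under 0.05.

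In astrocytes, the log2 fold change of Gpc5 was 0.38 (SE 0.17, unadjusted p = 0.0419, adjusted p = 0.996). The controls (9679 to 10610 CPM) and the ANGPT2 libraries (11086 to 13913 CPM) did not overlap, but the difference did not pass the test over all 9583 genes. Within batches the log2 difference was 0.15 in batch 1 and 0.45 in batch 2. For Gpc6 the controls held 786, 882 and 1094 CPM and the ANGPT2 libraries 1103, 922, 1364 and 1374; the change was 0.47 (SE 0.20, unadjusted p = 0.0340, adjusted p = 0.996) and the groups overlapped.

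The astrocyte clusters were not equally represented. Cluster 25, low in Gpc6, made up 51.0% and 43.4% of astrocytes in the batch 1 controls and 36.5% and 28.4% in the batch 1 ANGPT2 libraries, but 2.71% in the batch 2 control and 5.47% and 2.31% in the batch 2 ANGPT2 libraries. In cluster 6 alone, Gpc6 was 1164 ± 43.4 CPM in controls (n = 3) and 1344 ± 125 in ANGPT2 (n = 4), with overlapping values. Gpc5 in cluster 6 was 10922 ± 1513 CPM in controls and 12533 ± 947 in ANGPT2, also overlapping. The part of cluster makeup in the class values was not tested.

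In oligodendrocyte precursors, Gpc6 held 1044, 871 and 1019 CPM in controls and 1234, 1123, 1089 and 1227 in ANGPT2, which did not overlap. The fitted change was 0.33 (SE 0.15, unadjusted p = 0.0346, adjusted p = 0.975). Gpc5 in the same nuclei overlapped between the groups, with a change of 0.24 (SE 0.16, adjusted p = 0.975). In endothelial nuclei, Gpc6 held 65.3, 207 and 89.1 CPM in controls and 263, 176, 247 and 305 in ANGPT2; the change was 0.93 (SE 0.39, unadjusted p = 0.0335, adjusted p = 0.999) on 43 and 142 UMIs, and the control female of batch 1 lay within the ANGPT2 range. Leaving out that library gave a change of 1.69, and leaving out the batch 1 control male gave 0.64.

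The other members showed no call. Gpc1 had log2 changes from -0.38 to -0.07 in 5 classes, the largest in excitatory neurons (-0.38, SE 0.21, adjusted p = 0.901). Gpc2 was tested in 2 classes (-0.37 in astrocytes and 0.07 in microglia), Gpc3 in 5 (-0.95 to 0.59) and Gpc4 in 4 (-0.40 to 0.15). The smallest unadjusted p of those 4 genes was 0.0989.

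**Figure D2:**
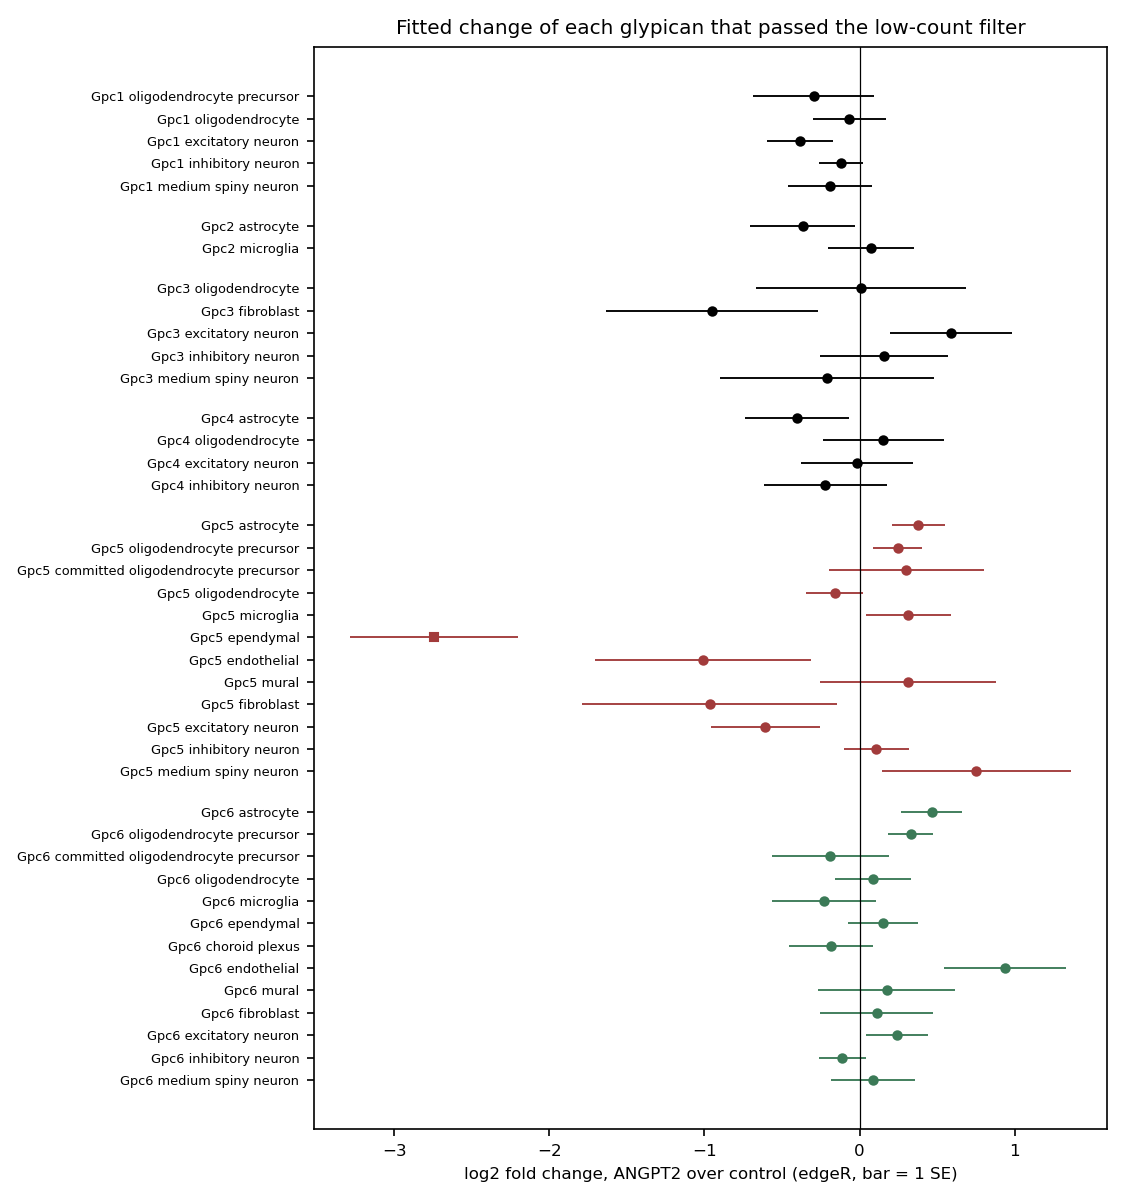
edgeR log2 fold change, ANGPT2 over control, for the 41 glypican and class pairs that passed the low-count filter; bars are 1 SE. The ependymal Gpc5 value (square, -2.74) is the contrast used to choose the family and is shown as a description, and the others lie between -1.01 and 0.93.

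Ependymal nuclei, the ciliated cells that line the ventricles, were few, at 287 over the 7 libraries. Their Gpc5 UMIs numbered 131 (male, batch 1), 14 (female, batch 1) and 24 (male, batch 2) in controls and 1, 16, 3 and 5 in ANGPT2 (male and female of batch 1, then male and female of batch 2). As levels these were 1023, 81.2 and 368 CPM against 8.50, 116, 114 and 81.3 CPM. The control female of batch 1 therefore lay among the ANGPT2 libraries, and the control male of batch 1 alone held 131 of the 194 UMIs. The fitted log2 change was -2.74 (SE 0.54), and -2.91 and -1.78 within batches 1 and 2. Leaving out the batch 1 control male gave -1.33, and keeping called doublets gave -1.23. Gpc6 in the same nuclei did not pass the test, at 508, 818 and 537 CPM in controls and 748, 647, 684 and 797 in ANGPT2 (log2 change 0.15, SE 0.23, adjusted p = 0.997).

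Whether this ependymal Gpc5 follows astrocyte RNA was read from 13 other astrocyte genes (Slc1a2, the main glutamate transporter, with Aldh1l1, Slc7a10, Slc4a4, Gjb6, Plpp3, Htra1, Bmpr1b, Ntsr2, Mertk, Slc6a11, Gabrg1 and Phkg1). In astrocytes Gpc5 gave 0.646 UMIs per UMI of this list. The list made up 1.67% of an astrocyte's UMIs (median) and 0.0962% of those of an ependymal nucleus without much of it, close to the 0.0716% in oligodendrocytes.

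By the broader astrocyte marker list, 9 or 10 of 10 markers were seen in each control library's ependymal nuclei (1815 to 2223 CPM). In each ANGPT2 library 8 or 9 were seen (1634 to 1898 CPM). Dentate granule markers were higher, at 2576 to 2913 CPM in controls and 3047 to 4083 in ANGPT2. So were thalamic excitatory markers, at 2564 to 3241 and 2683 to 3627 CPM. Apart from the ependymal list, all others were lower. Among them, general excitatory neuron markers held 992 to 1062 CPM in controls and 602 to 1302 in ANGPT2. Oligodendrocyte markers held 976 to 1218 and 380 to 1171 CPM, and border macrophage markers were at 0 in all. The lists hold different genes, 8 in the dentate granule and thalamic lists and 10 in the astrocyte list. Their sums therefore do not rank sources of RNA.

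The ependymal Gpc5 UMIs sat in few nuclei. The 3 richest, all in control males, held 88, 34 and 20 UMIs, and the 4th held 6. Those 3 nuclei also held 74, 51 and 26 UMIs of the astrocyte list, from 9, 10 and 9 of its genes, which is 0.870%, 0.772% and 1.00% of their UMIs. They held 59, 47 and 14 ependymal marker UMIs as well, from 12, 12 and 9 of the 12 markers, against a median of 0% ependymal marker UMIs in astrocytes. Over the 6 ependymal nuclei richest in the astrocyte list, these 3 included, the median ependymal marker share was 0.702%. It was higher, at 1.25%, in the other 281 ependymal nuclei. The doublet scores of the 3 nuclei richest in Gpc5, 0.48, 0.44 and 0.70, lay under the lowest called scores of their libraries (0.80, 0.80 and 0.72). Calls were made by score rank, as a preset share of each library (7.25% and 7.70% in the control males of batches 1 and 2). A score under the lowest called one therefore does not settle whether a nucleus is a doublet, which was not tested.

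With a limit of 0.5% astrocyte list UMIs, chosen after these values were seen, 6 ependymal nuclei (5 control, 1 ANGPT2) were over it and held 142 of the 194 Gpc5 UMIs (73.2%); 98.3% of astrocytes were over the same limit. The 3 of them with Gpc5 held 142 Gpc5 UMIs to 151 list UMIs, a ratio of 0.940, and the other 3 held 0 to 64. In single astrocytes that ratio ran from 0.0451 to 1.34 (5th to 95th percentile), and in the other 281 ependymal nuclei together it was 0.0718. Just inside and just outside the limit, the list shares were 0.515% and 0.459%.

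Without the 6 nuclei, Gpc5 stood at 79.7, 85.4 and 64.7 CPM in the controls and 8.50, 116, 114 and 83.0 CPM in the ANGPT2 libraries, so the groups overlapped. The remaining 52 UMIs were too few for the low-count filter, so the gene was not fitted. Under this alternative 0 of 2794 ependymal genes passed edgeR's test (116 had an unadjusted p under 0.05). Of Lsamp, the other gene called in ependymal nuclei, 275 of 697 UMIs lay in the same 6 nuclei. Its controls held 2288, 992 and 874 CPM with them and 726, 811 and 501 without. The ANGPT2 libraries held 417, 589, 190 and 667 CPM with them and 417, 589, 190 and 681 without. The groups did not overlap with the 6 nuclei and overlapped without them, with the control mean still the higher. All results without the 6 nuclei are a description only and no test. The limit was chosen after the Gpc5 and list values were seen. The nuclei it removed, 5 of them control, held 142 of the 194 Gpc5 UMIs.

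**Figure D3:**
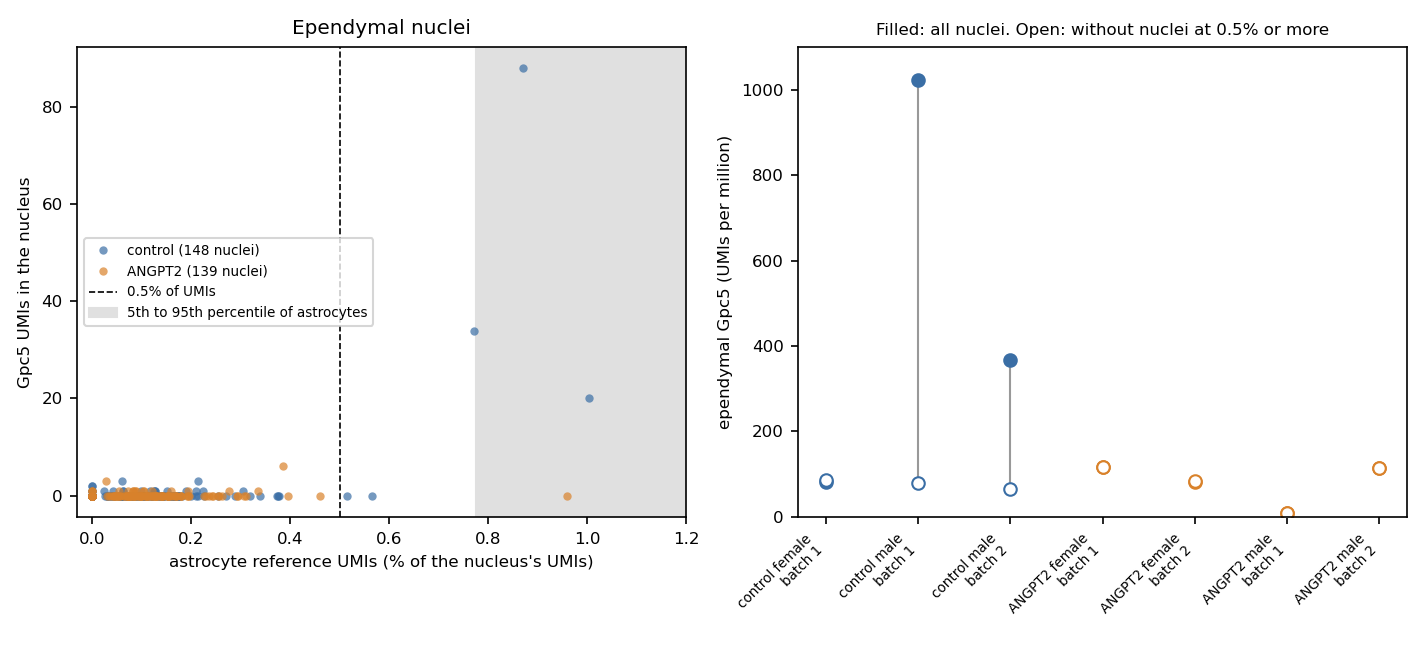
Left, Gpc5 UMIs against the astrocyte list's share of UMIs in each of the 287 ependymal nuclei (grey band, 5th to 95th percentile of astrocytes; dashed line, 0.5%). Right, ependymal Gpc5 in each library with all nuclei (filled) and without the 6 nuclei over the limit (open), where the control males of batches 1 and 2 move from 1023 to 79.7 and from 368 to 64.7 CPM.

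The summed astrocyte list itself was 1506 ± 299 CPM in control ependymal nuclei (n = 3) and 1134 ± 240 in ANGPT2 (n = 4). An exact permutation test, two-sided, gave p = 0.171, where 0.0571 is the smallest this design allows. Without the 6 nuclei the values were 1004 ± 199 and 1091 ± 214 CPM, a description only, since the nuclei were removed for their share of this same list. Among ependymal nuclei thinned to 1000 UMIs, 8 of the 84 with 0 list UMIs had a Gpc5 UMI (9.52%, exact 95% interval 4.20 to 17.9%) and 11 of the 155 with 1 or more did (7.10%, 3.60 to 12.3%). The same share with 0 list UMIs was 6.19% in oligodendrocytes and 2.78% in microglia. The oligodendrocyte share lies inside the ependymal interval, and the intervals cover counting error only.

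If all list UMIs of a class came from astrocytes, Gpc5 would follow at the astrocyte ratio, so observed over carried-over Gpc5 would be 1. In ependymal nuclei that ratio was 0.886, 0.123 and 0.410 in controls (male and female of batch 1, male of batch 2) and at most 0.193 in ANGPT2. The 2 highest values were those of the libraries with the 3 richest nuclei. Medians over libraries were 0.132 in oligodendrocytes, 0.0479 in microglia, which express Mertk themselves, and 0.0566 in choroid plexus. All 7 libraries of oligodendrocyte precursors were above 1 (3.20 to 6.35), and inhibitory neurons had a median of 1.08. A ratio near 1 does not by itself show that the Gpc5 came with astrocyte RNA. Of the 4586 inhibitory nuclei, 0 were over the astrocyte list limit, and their Gpc5 differed widely between clusters, as given above. The source of the inhibitory Gpc5 UMIs was not tested.

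**Figure D4:**
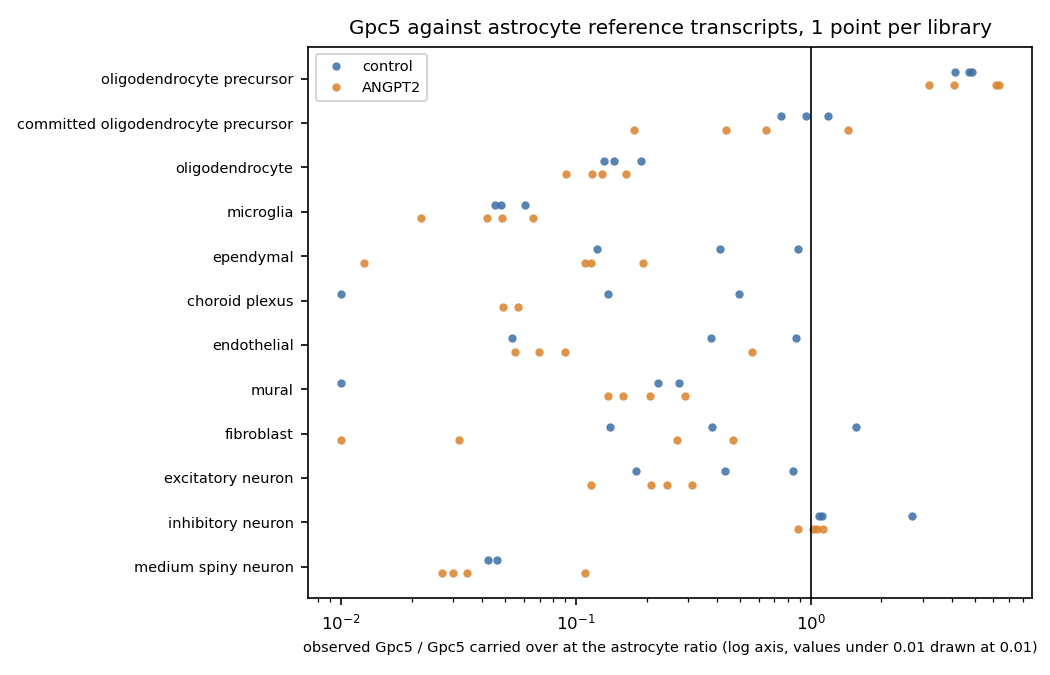
Observed Gpc5 divided by the Gpc5 expected if all astrocyte list UMIs of a class came with astrocyte RNA (log axis, values under 0.01 drawn at 0.01), 1 point per library (blue control, orange ANGPT2); the line at 1 is the astrocyte ratio. Oligodendrocyte precursors lie above 1 in all 7 libraries, and most ependymal, choroid plexus, microglial and oligodendrocyte points lie well below it.

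Choroid plexus showed the same kind of concentration. There, 4 of 175 nuclei were over 0.5%, and 1 of them, in the control male of batch 1, held 73 of the 108 Gpc5 UMIs, and the mean level was 77.9 CPM with them and 29.6 without. In oligodendrocyte precursors the nuclei over the limit held 1.08% of the Gpc5 UMIs, and in inhibitory neurons 0%.

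The genes that build, modify and bind heparan sulfate gave 0 calls in every class by the same edgeR test under the main design, while 2 of them passed under other settings, Sulf1 in astrocytes and Nrp1 in inhibitory neurons. In astrocytes, 9 of 12 other heparan sulfate core proteins (syndecans, perlecan, agrin and others) passed the filter, with 4 higher, 5 lower and a median log2 change of -0.09, beside 0.00 over all 9583 genes. Of the enzymes that start and lengthen the chain 9 of 11 were tested (median -0.02), and of those that modify it 12 of 15 (median -0.14), where Sulf1, an extracellular sulfatase, had the smallest p (log2 change -1.41, SE 0.46, adjusted p = 0.996). Sulf1 passed edgeR's test with the replicate block and sex together (-1.82, adjusted p = 0.00859), where 2 of 9583 genes did. It also passed with no filter on low counts (adjusted p = 3.63e-05), where 44 of 20798 genes did. With the replicate block alone (adjusted p = 0.960) or sex alone (adjusted p = 0.710) Sulf1 did not pass. Its change was -0.73 without the batch 1 control female. Genes that release or break down the chain (6 of 10, median -0.05), neuronal partners (9 of 9, median -0.05; Gpr158, a receptor for Gpc4, 0.53, adjusted p = 0.996) and glypican-bound signals (9 of 14, median -0.11) gave 0 calls too. In inhibitory neurons the smallest p among other core proteins was that of Nrp1, a receptor that can carry sugar chains (log2 change -0.66, SE 0.17, adjusted p = 0.545). Nrp1 passed edgeR's test with no filter on low counts (adjusted p = 0.0221), the setting that called 44 of 20798 genes in astrocytes. The share of all inhibitory neuron genes that passed at that setting is not reported here, so nothing is read from this call. Nrp1 did not pass under the other 15 alternatives (adjusted p from 0.0696 to 0.984).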

How the data were processed

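Raw UMI counts of single-nucleus 10x libraries were used as the authors deposited them: 7 matrices of 32285 genes, made with Cell Ranger 6.1.2 on mm10 (GRCm38), per the submitters' processing notes. Whether intronic reads were counted is not given in the sources used here. Barcodes with at least 300 genes and at most 5% mitochondrial UMIs were kept and called doublets (5.04 to 7.70% of a library) removed. Nuclei were clustered (2500 variable genes without the glypicans, 40 components, 15 neighbours, Leiden resolution 1; leidenalg 0.10.2, scikit-learn 1.9.0) and named by markers. UMIs were summed per library and class and tested with edgeR 4.0.16 (quasi-likelihood test, TMM, low-count filter, treatment only, Benjamini-Hochberg over all genes of a class, threshold 0.05), a procedure tested on simulated data. DESeq2 1.42.0 was an alternative. Single values had exact permutation tests over libraries. The text names the 6 glypicans, the 3 genes most like each in class profile (for Gpc1 not reported here), and of each heparan sulfate list any called gene or the one with the smallest p. The members and lists were chosen with earlier results of these data known. Precision depended on the number of libraries in each group and the spread between them. For low counts it also depended on total counts per library, 25466033 to 100529717. The labels call batches Replicate 1 and Replicate 2, so the batch number served as the replicate block.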

Additional observations from a re-analysis of the deposited data

Results flagged for a closer look

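In 46 sets of the 4 ANGPT2 libraries (a glypican in a class or in whole libraries), 4 had 1 library far from the other 3 by Dixon's test; chance gives about 1 in 20. Gpc5 in endothelial nuclei was 274.9 CPM in the ANGPT2 female of batch 2, against 43.6 to 80.7 in the others. Gpc5 in medium spiny neurons was 120.7 CPM in the ANGPT2 male of batch 2, against 23.3 to 29.7. Gpc5 in oligodendrocytes was 47.1 CPM in the same male, against 67.6 to 70.5. Gpc5 in whole libraries was 594.4 CPM in the ANGPT2 female of batch 2, against 510.6 to 519.7.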

How the results depend on the processing

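The count of called glypican and class pairs was 1, ependymal Gpc5, the contrast the family was chosen on, so how often it passes describes the settings and supports nothing. The count was 0 with the DESeq2 test, with clustering resolution 2, with called doublets kept and with the glypicans among the variable genes, and 2 with no filter on low counts, which added choroid plexus Gpc5 (log2 change -2.31, SE 0.45, edgeR adjusted p = 0.00275). Leaving out 1 library at a time gave 0 to 1: it was 0 when either the batch 1 control male or the batch 2 ANGPT2 female was omitted, and when the batch 1 ANGPT2 male was omitted the called pair was choroid plexus Gpc5 and not ependymal Gpc5. With the replicate block the count was 1 (ependymal Gpc5 -2.73), and the block changed no other glypican call. The ependymal log2 change ran from -3.43 to -1.33 over the left-out libraries, and astrocyte Gpc5 from 0.30 to 0.43. The summed astrocyte list in ependymal nuclei differed by -541.7 to -261.7 CPM over them, and by 86.8 CPM, the opposite direction, without the 6 nuclei rich in that list, an alternative chosen after seeing the data that removes nuclei for this same sum and so is no test of it. Depth limits the rare classes and the low members: only 41 of 78 pairs passed the low-count filter.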
